A study of Mus musculus with 4 samples.

Results

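Collagen chain genes were taken as all genes whose symbol is Col, a type number, a and a chain number in the annotation of the array's probes. The rule found 59 of 25697 probes, for 37 of 16593 genes with a probe: 11 fibrillar chains, 6 basement membrane chains of type IV and 20 others. A further 8 chains of the class lists, Col6a3, Col6a4, Col6a5, Col8a1, Col12a1, Col20a1, Col21a1 and Col22a1, matched no probe in that annotation and were not analysed here.

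The data came from 4 Illumina BeadChip arrays, hybridised with biotin-labelled cRNA from 0.55 ug of total RNA each. There was 1 array for each of the groups APNL+AuEMF, APNL, Primary neuron and Fibroblast. All 4 are mouse cells, in a study of turning cells directly into dopamine neurons with an electromagnetic field. The labels give no strain, age, passage or time in culture, do not spell out APNL or AuEMF, and do not say from which brain region the primary neurons came or whether cells were pooled. Here APNL is read as transcription factors delivered to the cells and AuEMF as gold particles with a field applied. The design calls the fibroblasts the control. With 1 array in each group there are no replicates, so the differences could not be checked against a spread, and no p-value between groups was computed. Precision is limited by there being 4 arrays in all. Because these are bulk samples, fewer collagen-making cells and less collagen mRNA per cell cannot be told apart.

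Collagens are trimers of chains that wind around each other, each with glycine at regular steps. Fibrillar collagens form the cables of connective tissue, type IV collagen forms the sheet of the basement membrane, and the remaining types coat fibrils, anchor membranes, form fine filaments or span the cell surface. Fibroblasts are the main makers of fibrillar collagen in connective tissue, whereas in brain most collagen lies in vessel walls and meninges and neurons make little of the fibrillar types.

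Levels below are log2 intensities after background correction and quantile normalization. A detection p below 0.01 made a probe detected, and each gene is given by its brightest probe. Probes bind with different strength, so levels are compared between arrays for 1 gene and not between genes. Gene positions are those of RefSeq on GRCm38.p6. Detected probes made up 45.8% of all probes on the APNL+AuEMF array, 42.9% on APNL, 47.8% on Primary neuron and 41.4% on Fibroblast. Among the 59 collagen probes 28 were detected on APNL+AuEMF, 26 on APNL, 22 on Primary neuron and 27 on Fibroblast. The fibroblast marker list had 11 of 11 genes detected on APNL+AuEMF, APNL and Fibroblast, and 10 on the Primary neuron array, where Dpt, dermatopontin, was not detected. The neuron marker list had 8 of 10 genes detected on the Primary neuron array, including Dcx and Rbfox3. It also had 8 detected on APNL+AuEMF, with 6 on APNL and 5 on Fibroblast. Snap25 and Nefl were not detected on any array. Of 10 dopamine neuron markers 4 were detected on Primary neuron and 3 on each of APNL+AuEMF, APNL and Fibroblast. Th, Slc6a3 and Pitx3 were among those not detected on any array. The Fibroblast array also had 8 of 10 skeletal muscle markers and 3 of 7 endothelial markers detected. Tek, Flt1 and Emcn were the endothelial ones, while Pecam1, Cdh5, Kdr and Tie1 were not detected on any array.

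Of the 37 chains 24 were detected on at least 1 array, 17 on all 4 and 13 on none. Of all 16593 genes 9184 were detected on at least 1 array. By array, 23 chains were detected on APNL+AuEMF, 21 on APNL, 19 on Primary neuron and 21 on Fibroblast. These are 62.2%, 56.8%, 51.4% and 56.8% of the chains, against 51.7%, 49.1%, 52.6% and 47.3% of all genes. Among the 17 chains detected on all 4 arrays, 16 had their lowest level on the Primary neuron array, and the exception was Col7a1. How many of all genes were lowest on that array was not counted, so this count has no all-gene share beside it. The fibrillar class had 8 of 11 chains detected, the basement membrane class 4 of 6 and the others 12 of 20. Undetected everywhere were the fibrillar Col11a1, Col11a2 and Col27a1, the type IV chains Col4a3 and Col4a4, and Col6a6, Col9a3, Col10a1, Col13a1, Col17a1, Col19a1, Col25a1 and Col28a1. Their raw signals lay between 80.4 and 210.0 intensity units over the 4 arrays, against medians over all probes of 169 to 207. These genes have only an upper limit here and are not shown to be silent.

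**Figure D1:**
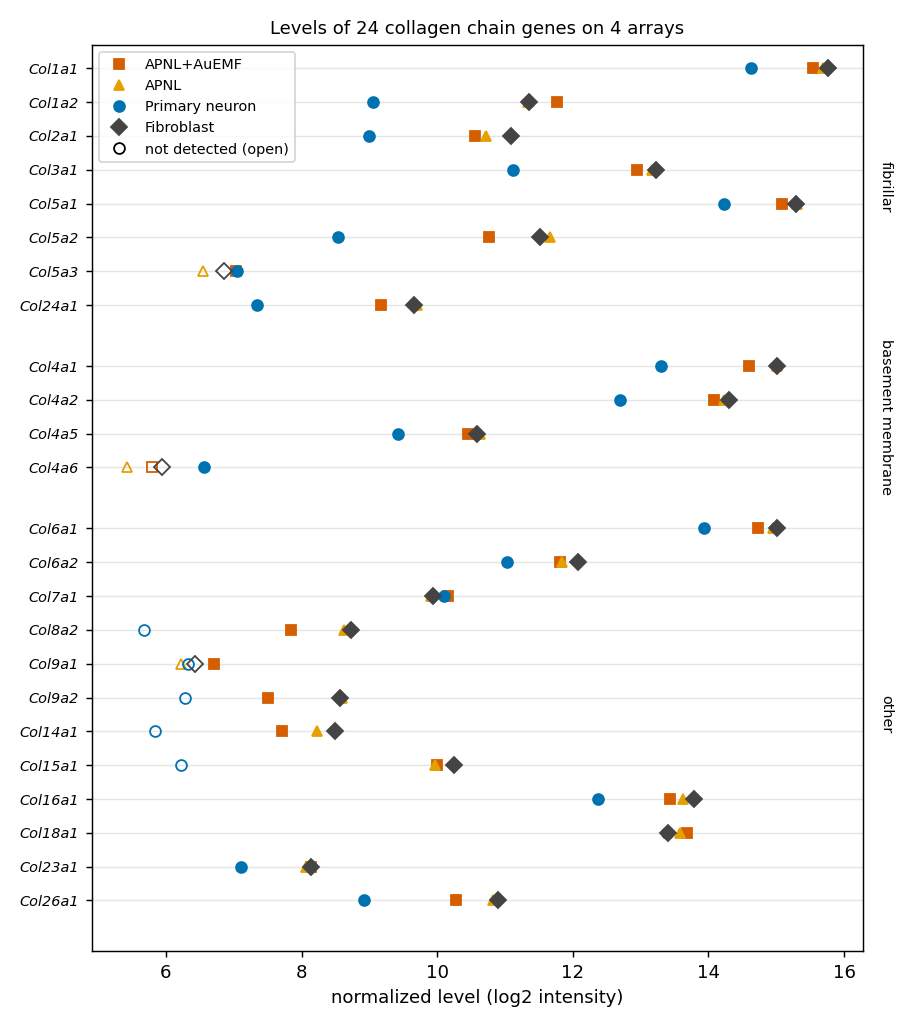
Normalized level (log2 intensity) of the 24 collagen chain genes detected on at least 1 array, in rows by class, with 1 symbol per array and open symbols where the probe was not detected. The Primary neuron symbol lies farthest left in 20 of the 24 rows, a count with no all-gene share beside it. The APNL+AuEMF symbol lies apart from those of APNL and Fibroblast for Col9a2, at 7.50 on APNL+AuEMF, 8.60 on APNL and 8.56 on Fibroblast.

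The first question is how primary neurons, the cell type aimed at, differ from fibroblasts. Collagen mRNA was lower on the Primary neuron array in all 3 classes: 19 chains were lower by 2-fold or more, none was higher and 4 of the 23 compared were neither. Over all 8987 compared genes 14.9% were lower and 11.0% were higher by 2-fold or more. A chain detected on the Fibroblast array alone passes the filter because it is high there, so the 17 chains detected on both arrays were also counted. Of these, 15 were lower and none was higher, with a median log2 difference of -1.41, against 15.1% of genes lower, 8.72% higher and a median of -0.18 over all 7588 genes detected on both arrays. The Primary neuron array nevertheless had 19 detected chains, and fibroblast markers were detected on it as given above. Of 11 fibroblast markers 9 were lower by 2-fold or more there than on Fibroblast and 0 higher, with a median log2 difference of -2.02. Of the 10 detected on both arrays 8 were lower, with a median of -1.71. Their summed levels, which weigh bright probes most, came to 50087 linear units on Primary neuron and 98915 on Fibroblast. The part of these markers in the collagen levels of the Primary neuron array was not tested.

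**Figure D2:**
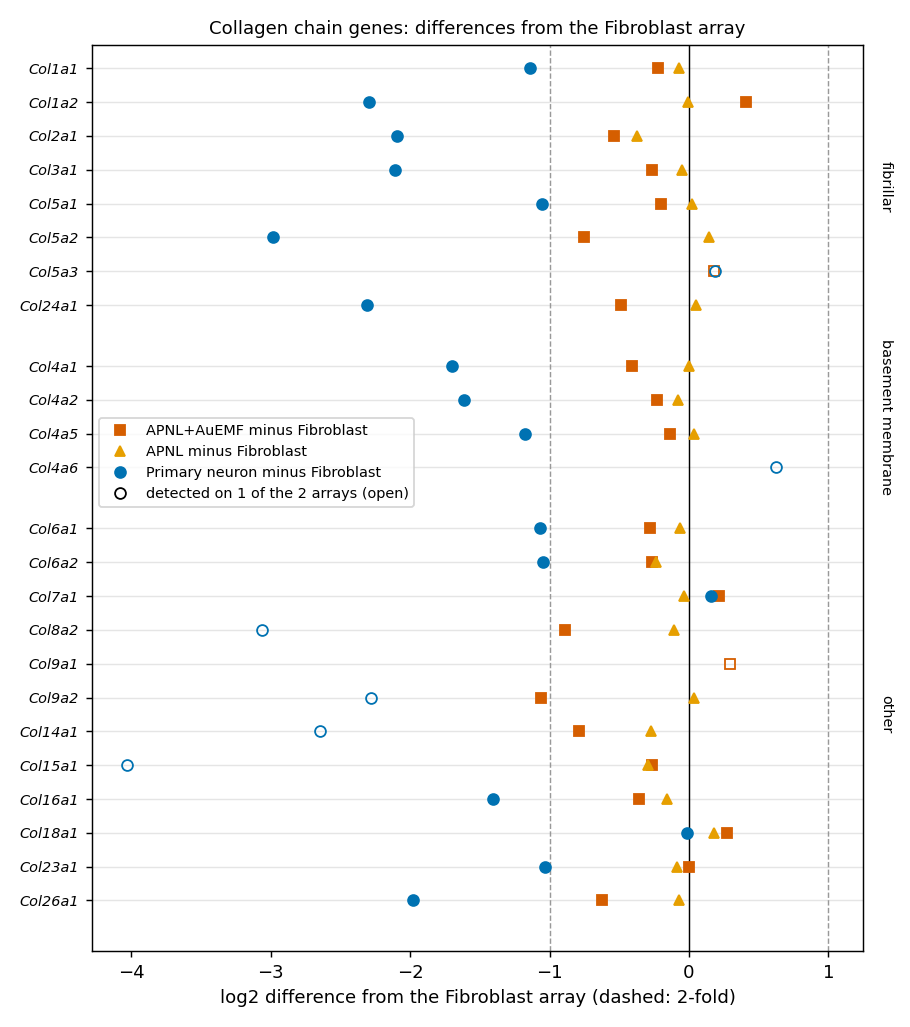
Log2 difference of each chain from the Fibroblast array for APNL+AuEMF, APNL and Primary neuron, in rows by class, with dashed lines at 2-fold and open symbols where only 1 of the 2 arrays detected the probe. The Primary neuron symbols reach -4.03 for Col15a1 and pass the lower 2-fold line in 19 rows, whereas 1 APNL+AuEMF symbol and no APNL symbol passes it.

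Type I collagen, the main fibril of skin, bone and tendon, is built from Col1a1 and Col1a2 chains. Col1a1 (chromosome 11, 94936224 to 94953042) had levels of 15.55 on APNL+AuEMF, 15.69 on APNL, 14.63 on Primary neuron and 15.77 on Fibroblast. Col1a2 (chromosome 6, 4505618 to 4541543) had 11.76 on APNL+AuEMF, 11.35 on APNL, 9.06 on Primary neuron and 11.35 on Fibroblast. Both were lowest in primary neurons, with differences from fibroblasts of -1.14 for Col1a1 and -2.30 for Col1a2. Type V collagen, a minor collagen of fibrils that helps set their width, also had an uneven pair. Col5a1 had 15.09 on APNL+AuEMF, 15.31 on APNL, 14.23 on Primary neuron and 15.29 on Fibroblast. Col5a2 had 10.77 on APNL+AuEMF, 11.66 on APNL, 8.54 on Primary neuron and 11.52 on Fibroblast. Their neuron differences from fibroblasts were -1.05 for Col5a1 and -2.98 for Col5a2.

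The type I and type V pairs were thus unequal by -1.16 for Col1a2 minus Col1a1 and by -1.93 for Col5a2 minus Col5a1. The Col1a1 and Col5a1 probes were near the top of the scale. Col1a1 had a raw signal of 24795 units on Primary neuron and 54691 on Fibroblast, and Col5a1 had 19158 on Primary neuron and 38656 on Fibroblast, where the brightest probe of the Fibroblast array had 68873. Median scaling in place of quantile normalization gave Col1a1 -1.80 and Col5a1 -1.67, and the inequalities were then -0.60 and -1.40. They kept their sign in each of the alternatives tried, and the part of the limited scale in them was not tested. The type IV and type VI pairs were nearly even, at 0.08 for Col4a2 minus Col4a1 and 0.03 for Col6a2 minus Col6a1. Over the settings tried they ran from 0.08 to 0.13 for type IV and from 0.03 to 0.27 for type VI. Col4a1 and Col6a1 were bright too, with raw signals on Fibroblast of 31507 for Col4a1 and 31604 for Col6a1.

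Among the other fibrillar chains, Col3a1, which mixes with type I in soft tissue, had 12.95 on APNL+AuEMF, 13.17 on APNL, 11.11 on Primary neuron and 13.22 on Fibroblast, a neuron difference of -2.11. Col2a1, the main collagen of cartilage, had 10.55 on APNL+AuEMF, 10.72 on APNL, 9.0 on Primary neuron and 11.09 on Fibroblast, a difference of -2.09. A second Col2a1 probe gave -2.26. The cartilage markers Acan, Matn1, Matn3, Comp and Hapln1 were not detected on any array, and Sox9 was the 1 of 8 cartilage markers that was. Col24a1, a chain of developing bone, had 9.17 on APNL+AuEMF, 9.71 on APNL, 7.35 on Primary neuron and 9.66 on Fibroblast, a difference of -2.31. Of its other probes 1 was detected on every array but Primary neuron and 1 was not detected at all, so the mean over its probes gave -1.66. Col5a3 was the fibrillar chain that was not lower. It was detected on APNL+AuEMF at 7.04 and on Primary neuron at 7.04, and not on APNL or Fibroblast, with a detection p of 0.026 on APNL and 0.018 on Fibroblast.

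Type IV collagen is the network of basement membranes, and its common form is built from Col4a1 and Col4a2 chains. Col4a1 had levels of 14.60 on APNL+AuEMF, 15.00 on APNL, 13.30 on Primary neuron and 15.00 on Fibroblast. Col4a2 had 14.08 on APNL+AuEMF, 14.23 on APNL, 12.70 on Primary neuron and 14.31 on Fibroblast. Both were lower in primary neurons, by 3.25-fold for Col4a1 and 3.06-fold for Col4a2, and the 3 non-neuron arrays lay within 0.41 of each other. The X-linked Col4a5 had 10.45 on APNL+AuEMF, 10.63 on APNL, 9.42 on Primary neuron and 10.59 on Fibroblast, a neuron difference of -1.17. Its neighbour on the X chromosome, Col4a6, was detected on Primary neuron alone, at 6.57 with a detection p of 0.0038, and by 1 of its 3 probes. That level is under the lowest detected level of the Fibroblast array, 7.13, so no fold can be given.

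Col4a1 and Col4a2 lie head to head on chromosome 8 and had nearly equal neuron differences, so their start regions are shown, next to those of the fibrillar chains Col1a2 and Col3a1, which were near each other in their neuron differences, and of Col15a1, which had the largest one. Each is 250 bases before to 50 bases after a RefSeq start site on GRCm38.p6, read 5′ to 3′ on the strand of the gene. Capitals mark CCAAT, the box bound by the NF-Y factor, TATAAA, the TATA box, and GGGCGG, the GC box bound by Sp1, each searched on both strands and none overlapping another in these 5 windows. The windows are chr8:11312777-11313076 on the minus strand for Col4a1, chr8:11312555-11312854 on the plus strand for Col4a2, chr6:4505368-4505667 (plus) for Col1a2, chr1:45311288-45311587 (plus) for Col3a1 and chr4:47207762-47208061 (plus) for Col15a1.
Col4a1: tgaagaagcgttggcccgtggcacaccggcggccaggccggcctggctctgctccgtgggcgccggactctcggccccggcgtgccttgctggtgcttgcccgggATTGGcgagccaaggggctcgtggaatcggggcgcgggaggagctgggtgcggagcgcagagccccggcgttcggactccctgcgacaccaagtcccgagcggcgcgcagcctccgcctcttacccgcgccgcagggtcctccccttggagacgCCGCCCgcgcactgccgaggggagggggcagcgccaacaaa
Col4a2: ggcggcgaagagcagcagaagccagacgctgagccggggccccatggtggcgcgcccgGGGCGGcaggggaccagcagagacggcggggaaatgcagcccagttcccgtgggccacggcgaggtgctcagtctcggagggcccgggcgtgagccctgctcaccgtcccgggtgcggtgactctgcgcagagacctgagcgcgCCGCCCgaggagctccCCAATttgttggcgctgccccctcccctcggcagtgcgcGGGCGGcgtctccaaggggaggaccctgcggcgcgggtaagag
Col1a2: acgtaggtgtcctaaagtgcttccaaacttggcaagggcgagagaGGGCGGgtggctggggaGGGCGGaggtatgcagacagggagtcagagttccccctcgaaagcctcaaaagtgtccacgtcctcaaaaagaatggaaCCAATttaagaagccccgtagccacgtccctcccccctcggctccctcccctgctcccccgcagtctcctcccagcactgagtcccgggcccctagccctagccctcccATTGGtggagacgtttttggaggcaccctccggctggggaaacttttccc
Col3a1: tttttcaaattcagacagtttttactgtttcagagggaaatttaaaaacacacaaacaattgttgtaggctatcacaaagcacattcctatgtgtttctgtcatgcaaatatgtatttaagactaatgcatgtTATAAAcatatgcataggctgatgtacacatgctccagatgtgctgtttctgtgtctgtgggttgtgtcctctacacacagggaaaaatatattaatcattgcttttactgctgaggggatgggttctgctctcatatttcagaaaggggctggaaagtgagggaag
Col15a1: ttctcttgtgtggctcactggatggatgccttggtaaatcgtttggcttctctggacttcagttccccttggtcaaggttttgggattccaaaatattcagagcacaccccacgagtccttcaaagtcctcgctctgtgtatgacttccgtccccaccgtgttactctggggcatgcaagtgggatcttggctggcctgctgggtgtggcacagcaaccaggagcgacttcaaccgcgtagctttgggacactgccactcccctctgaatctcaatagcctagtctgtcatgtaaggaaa
The start sites of Col4a1 and Col4a2 lie 21 bases apart and their windows share 78 bases. Their windows hold 1 CCAAT match each, with 1 GC box for Col4a1 and 3 for Col4a2. The GC box of Col4a1 and 1 of those of Col4a2 are the same bases, within the shared stretch and read on opposite strands. That site is thus counted for both genes. The Col1a2 window holds 2 CCAAT matches and 2 GC boxes, the Col3a1 window 1 TATA box and none of the others, and the Col15a1 window none of the 3 motifs. Windows were found for 30 of the 37 chains, and those of Col1a1, Col2a1, Col4a3, Col5a2, Col9a3, Col14a1 and Col26a1 were not used here. Of the 30 windows 36.7% held CCAAT, 16.7% TATAAA and 63.3% GGGCGG, against 37.9%, 14.2% and 35.9% of 27025 windows of all genes, and the median GC content was 61.3% against 52.7%. These matches are letters in a window and do not show that a factor binds there.

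Among the chains outside these classes, those with the largest neuron differences were ones that the Primary neuron array did not detect. Col15a1, a multiplexin of the outer basement membrane zone of muscle and vessels, had 9.99 on APNL+AuEMF, 9.96 on APNL, 6.22 on Primary neuron, where it was not detected, and 10.25 on Fibroblast. It was at least 14.8-fold lower in primary neurons than in fibroblasts, a bound that was 6.75-fold without background correction. Col8a2, a short chain of the corneal endothelial membrane and vessel walls, had 7.84 on APNL+AuEMF, 8.62 on APNL, 5.67 on Primary neuron, where it was not detected, and 8.73 on Fibroblast, at least 5.17-fold lower. Col14a1, which coats fibrils in tendon and skin, had 7.70 on APNL+AuEMF, 8.22 on APNL, 5.85 on Primary neuron, where it was not detected, and 8.49 on Fibroblast, at least 4.38-fold lower. Col9a2, a chain of the fibril-coating type IX of cartilage, had 7.50 on APNL+AuEMF, 8.60 on APNL, 6.28 on Primary neuron, where it was not detected, and 8.56 on Fibroblast, at least 4.60-fold lower. All 4 were detected on each of the other 3 arrays. Without background correction the bounds were 2.72-fold for Col8a2, 2.39-fold for Col14a1 and 2.48-fold for Col9a2, still past 2-fold. The muscle markers, whose list sums to 1481 linear units on Primary neuron and 35116 on Fibroblast, and the endothelial markers, at 1013 on Primary neuron and 7384 on Fibroblast, differed in the same direction, and their part in the Col15a1 and Col8a2 differences was not tested.

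Of the chains of this class detected on both arrays, Col16a1, a fibril-associated chain, had 13.43 on APNL+AuEMF, 13.63 on APNL, 12.38 on Primary neuron and 13.78 on Fibroblast, a neuron difference of -1.41. Col26a1 had 10.27 on APNL+AuEMF, 10.83 on APNL, 8.92 on Primary neuron and 10.90 on Fibroblast, a difference of -1.98. Col6a1 and Col6a2, partners in the beaded filaments of type VI around muscle and other cells, had neuron differences of -1.07 for Col6a1 and -1.04 for Col6a2, just past 2-fold. A second Col6a1 probe, detected on all 4 arrays, gave -0.94 and did not reach 2-fold. For APNL minus Primary neuron the brightest probe gave 1.00 and the second 0.80. Another Col6a1 probe was detected on Fibroblast alone. Col6a1 had 14.73 on APNL+AuEMF, 14.94 on APNL, 13.94 on Primary neuron and 15.01 on Fibroblast. Col6a2 had 11.81 on APNL+AuEMF, 11.84 on APNL, 11.03 on Primary neuron and 12.08 on Fibroblast. The membrane-spanning Col23a1 had 8.14 on APNL+AuEMF, 8.06 on APNL, 7.11 on Primary neuron and 8.14 on Fibroblast, a difference of -1.04. In the alternatives it ran from -1.04 to -0.59, and it did not reach 2-fold without background correction, with normexp and an offset of 50, or with either median scaling.

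A pair of chains in this class differed little between primary neurons and fibroblasts. Col18a1, the basement membrane chain whose end fragment is endostatin, had 13.68 on APNL+AuEMF, 13.59 on APNL, 13.39 on Primary neuron and 13.40 on Fibroblast, a neuron difference of -0.01. A second Col18a1 probe, at 8.59 on Primary neuron and 8.44 on Fibroblast, gave 0.14, and another was not detected on any array. Col7a1, the anchoring fibril chain of skin, had 10.16 on APNL+AuEMF, 9.90 on APNL, 10.10 on Primary neuron and 9.94 on Fibroblast, a difference of 0.16. Its second probe was not detected on any array. Keratinocyte markers Krt5, Krt15, Trp63 and Krt1 were not detected on any array. The same list had 2 other genes detected on each of APNL+AuEMF, APNL and Fibroblast, and 1 on Primary neuron. Agrn, agrin, a proteoglycan partner of basement membranes, was likewise neither higher nor lower, at 14.62 on Primary neuron and 14.35 on Fibroblast.

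The comparison of APNL with Fibroblast asks how cells given the factors alone differ from fibroblasts. The collagen levels of the 2 arrays were close: of 21 compared chains, all detected on both arrays, 0 were higher and 0 lower by 2-fold, and the log2 differences ran from -0.37 for Col2a1 to 0.18 for Col18a1, with a median of -0.06. Over all 8242 compared genes 1.55% were higher, 0% were lower and the median was -0.01, and of those detected on both arrays 0.994% were higher. At a 1.5-fold threshold no chain was called either, where 3.18% of all compared genes were higher and 0.51% lower. With shares this low, counts of 0 among 21 chains do not set them apart from other genes. Where 2 or more probes of 1 chain were detected on both arrays, their differences lay a median of 0.27 apart over 5 chains, against 0.15 over 1696 genes. Type I chains differed by -0.07 for Col1a1 and -0.01 for Col1a2, and type IV chains by 0.00 for Col4a1 and -0.08 for Col4a2.

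The comparison of APNL+AuEMF with Fibroblast asks the same of factors with AuEMF. The median over 23 compared chains was -0.26, with 0 higher and 1 lower by 2-fold. Over all 8675 compared genes the median was -0.08, with 5.22% higher and 1.68% lower. Counts this low in so few chains do not set them apart from other genes. For all genes the split of 453 higher and 146 lower became 562 and 67 with scaling to the median of the probes detected on all arrays. Among genes detected on both arrays 3.65% were higher and 1.63% lower, with the same 1 chain lower. That chain was Col9a2 at -1.06, and it was not called in the alternatives without background correction, with normexp and an offset of 50, with either scaling or with the authors' deposited log2 values. The next lowest were Col8a2 at -0.89, Col14a1 at -0.79, Col5a2 at -0.75 and Col26a1 at -0.63, which with Col9a2 are the 5 chains lower by 1.5-fold, a threshold that 9.83% of all genes passed downwards. Col1a2 stood on the other side at 0.41, while Col1a1 was at -0.22.

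What AuEMF added to APNL is the question of the next comparison. Of 23 chains 0 were higher and 1 was lower by 2-fold, with a median of -0.17. Over 8700 genes 3.14% were higher and 0.759% lower, with a median of -0.05. These counts likewise do not set so few chains apart from other genes. The all-gene split of 273 higher and 66 lower became 375 and 16 with that scaling. Among genes detected on both arrays 2.83% were higher and 0.661% lower. Col9a2 was the lower chain at -1.10, followed by Col5a2 at -0.90, Col8a2 at -0.78 and Col26a1 at -0.55. The Col9a2 call was lost without background correction, with normexp and an offset of 50, with the authors' deposited log2 values and with either median scaling. Median scaling over all probes called Col5a2 instead, at -1.06. Col1a2 was the highest of the chains detected on both arrays, at 0.42, with raw signals of 3857 units on APNL+AuEMF and 2545 on APNL, and its difference lay between 0.27 and 0.42 in the alternatives tried. Col1a1 was at -0.15. The type I pair was thus spread by 0.57 for Col1a2 minus Col1a1, opposite in sign to the spread in primary neurons against fibroblasts. Col9a1 was detected on the APNL+AuEMF array alone, by 1 of its 3 probes at 6.72 with a detection p of 0.0038. That probe only just missed the cut of 0.01 on Primary neuron, with a detection p of 0.01003. It had 0.040 on Fibroblast and 0.065 on APNL. Marker lists differed between these arrays too. Macrophage markers summed to 21539 linear units on APNL+AuEMF, with 6 of 6 detected, against 2900 with 5 of 6 on APNL. Skeletal muscle markers summed to 16994 on APNL+AuEMF and 31451 on APNL, with all 8 compared genes below 0 and a median of -0.90, and endothelial markers to 4505 on APNL+AuEMF and 6545 on APNL, with a median of -0.78. The fibroblast list had a median of -0.08, with 2 of 11 genes higher by 2-fold, Dcn (decorin) at 1.26 and Dpt at 1.58, and 0 lower. Their part in the collagen differences was not tested.

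**Figure D3:**
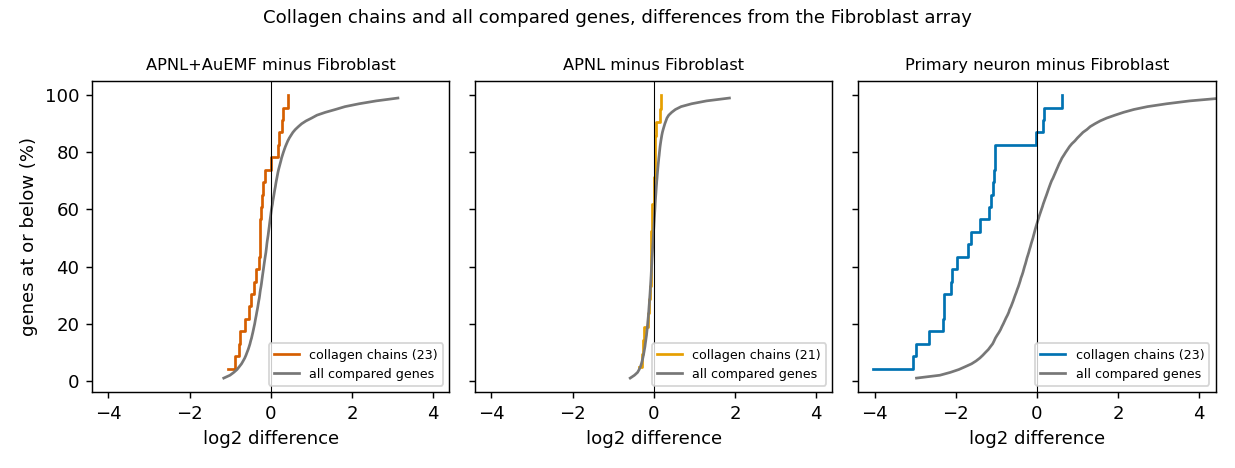
Share of genes (%) at or below each log2 difference from the Fibroblast array, for the compared collagen chains (coloured steps) and for all compared genes (grey line, first to 99th percentile), in 1 panel each for APNL+AuEMF, APNL and Primary neuron. The collagen steps lie left of the grey line throughout the Primary neuron panel, with medians of -1.61 and -0.10, and close to it in the APNL panel, with medians of -0.06 and -0.01.

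Set against primary neurons, both APNL arrays had higher collagen levels. These comparisons share arrays with those above and are not separate evidence. In APNL 17 of 23 compared chains were higher by 2-fold or more than in Primary neuron and 0 were lower, against 12.7% and 10.7% of all 9010 compared genes. Of the 17 chains detected on both arrays 13 were higher, against 12.5% of such genes, with a median of 1.25. In APNL+AuEMF 15 of 24 were higher and 0 lower, against 7.42% and 6.74% of 9076 genes. Of 18 chains detected on both arrays 11 were higher and 0 lower, against 6.92% and 6.82% of such genes, with a median of 1.04. In APNL+AuEMF Col1a2 was 6.54-fold and Col5a2 4.69-fold above primary neurons, while Col1a1, at 0.91, and Col5a1, at 0.85 on the log2 scale, did not reach 2-fold. With either median scaling both did, at 1.25 and 1.11 for Col1a1 and 1.18 and 1.04 for Col5a1.

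Genes whose products handle collagen were read in the same way from lists chosen with earlier results of these data known. The list of modification and folding, the enzymes and chaperones of the endoplasmic reticulum, had 19 of 21 genes with a probe and 15 compared between Primary neuron and Fibroblast. Of these 12 were lower and 0 higher, with a median of -1.45, and of the 14 detected on both arrays 11 were lower. Over all genes in this comparison, as for each list below, 14.9% were lower, 11.0% higher and the median was -0.10. P4ha1, a prolyl hydroxylase subunit, had 9.68 on APNL+AuEMF, 10.16 on APNL, 6.95 on Primary neuron and 10.33 on Fibroblast, a neuron difference of -3.38. Plod2, a lysyl hydroxylase, was at -2.89, Fkbp14, a folding isomerase, at -2.27 and P3h1, a prolyl 3-hydroxylase, at -2.16. Serpinh1, which encodes the collagen chaperone HSP47, had 13.34 on APNL+AuEMF, 13.84 on APNL, 11.96 on Primary neuron and 13.83 on Fibroblast and was named after its values were seen. None of the 15 genes was higher or lower in APNL+AuEMF or in APNL than in Fibroblast, with medians of -0.30 in APNL+AuEMF and -0.07 in APNL. Over all compared genes 5.22% were higher and 1.68% lower in APNL+AuEMF, and 1.55% higher and 0% lower in APNL. With shares this low, a count of 0 in so short a list does not set it apart from other genes.

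Outside the cell, the list of procollagen processing and crosslinking had 5 of 7 compared genes lower in Primary neuron and 0 higher, with a median of -1.28. Its members with the largest differences were Pxdn, the peroxidase that crosslinks type IV collagen, at -1.79, Loxl2 at -1.66 and Lox at -1.51, both lysyl oxidases, and Pcolce2, an enhancer of procollagen cleavage, at -1.28. The basement membrane partners had 7 of 9 lower and 0 higher, with a median of -1.71, including the laminin linkers Nid1 at -2.28 and Nid2 at -1.91, the perlecan gene Hspg2 at -1.83 and the laminin chain gene Lamb1 at -1.83. Agrn, given above, and Lamc1 at -0.99 were the 2 that were neither. In APNL+AuEMF and in APNL no gene of these 2 lists was higher or lower than in Fibroblast. All-gene shares were low as well, at 5.22% higher and 1.68% lower in APNL+AuEMF and 1.55% and 0% in APNL. Counts of 0 in lists this short thus do not set them apart from other genes.

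The receptor list had 4 of 5 compared genes lower in Primary neuron and 0 higher. Itga11, the integrin chain of fibroblasts that binds fibrillar collagen, had 13.51 on APNL+AuEMF, 14.00 on APNL, 9.75 on Primary neuron and 14.04 on Fibroblast, a neuron difference of -4.30. Ddr2, a receptor kinase for fibrillar collagen, was at -2.65, Itga1 at -1.94 and Itgb1 at -1.31, whereas the related kinase Ddr1 was at 0.06. The list of degradation and its inhibitors was mixed. In Primary neuron 3 of 8 were lower, which were Ctsk, a collagen-cutting cathepsin, at -1.77, Mmp2, a gelatinase, at -1.12 and Mmp14, a membrane-bound collagenase, at -1.01. Mmp13, a collagenase, was higher by 1.01 in Primary neuron, just past 2-fold and not called without background correction or with either median scaling, and by 1.91 in APNL+AuEMF, with levels of 12.75 on APNL+AuEMF, 11.35 on APNL, 11.85 on Primary neuron and 10.84 on Fibroblast. It was the 1 of 8 genes called in APNL+AuEMF against Fibroblast, where 5.22% of all genes were higher and 1.68% lower. The inhibitor Timp1 was at 0.46 in that comparison.

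**Figure D4:**
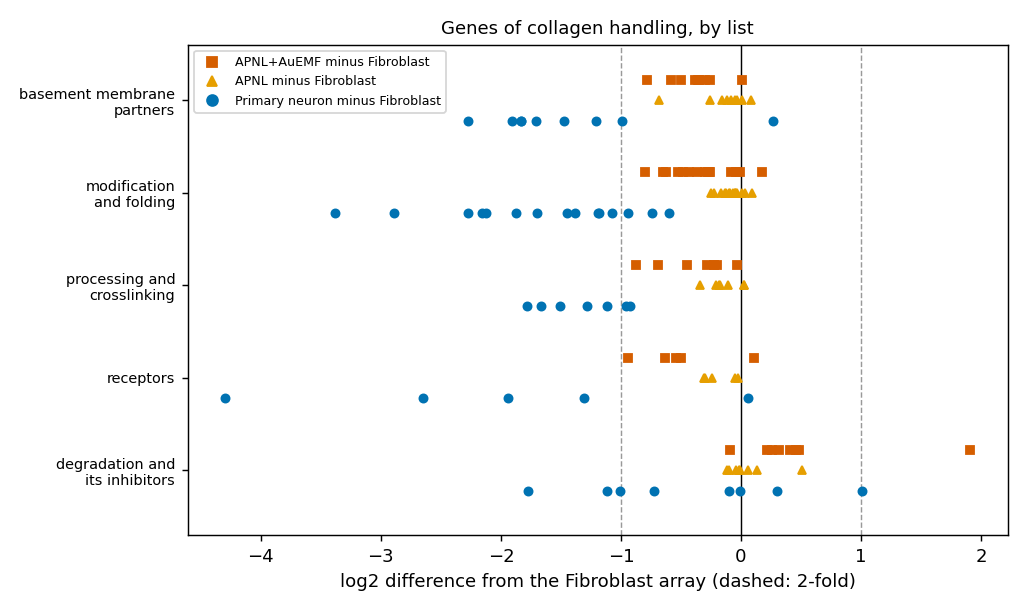
Log2 difference from the Fibroblast array of each compared gene of the 5 lists of collagen handling, with 1 symbol per gene and comparison and dashed lines at 2-fold. The Primary neuron symbols reach -4.30 among the receptors, and the only APNL+AuEMF symbol past a 2-fold line is Mmp13 at 1.91.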

How the data were processed

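Total RNA of 4 mouse samples, in 4 groups taken from the sample titles, was measured with 1 Illumina BeadChip array each. Per the submitters' processing notes the scanner software was GenomeStudio 2011.1, and the sources used here do not give its background handling. The deposited table holds a linear intensity per probe, not normalized between arrays, and a deposited detection p-value per probe and array. The authors also deposited log2 values, which quantile normalization of the log2 intensity without background correction gave to within 5e-07.

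From the deposited intensity, neqc of limma 3.58.1 in R 4.3.3 computed the levels, with controls inferred from the detection p-values, an offset of 16 and quantile normalization of the 4 arrays. Further steps used Python 3.11.15 with pandas 2.3.3. Signal over background sets the precision of each array, and the lowest detected levels were 6.58 on APNL+AuEMF, 6.93 on APNL, 6.36 on Primary neuron and 7.13 on Fibroblast. A gene took its probe with the highest mean over the arrays. Detection on either array of a comparison let it in, and it was called at 2-fold. Where 1 array did not detect it, a fold is a lower bound, taken against the higher of that array's lowest detected level and the gene's own level. All 37 symbols matched RefSeq by gene identifier. Summed list levels add linear values of the brightest probes. The steps were tested on simulated data.

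Each count and median of the chains, their classes, the handling lists and the fibroblast, muscle, endothelial and macrophage lists was recomputed in 9 other settings and in 1 chosen after seeing the data, scaling to the median of the probes detected on all arrays. Among these settings the authors' deposited log2 values repeat the one without background correction and are not a separate check. The members and lists were chosen with earlier results of these data known. Named genes follow a rule: each member is counted, and values are given for members past 2-fold in a comparison, for type IV chains and for those whose probes disagree, with up to 4 genes from each handling list and 3 from each marker list. Other named genes were chosen after their values were seen. Chain protein sequences were not used here.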

Additional observations from a re-analysis of the deposited data

How the results depend on the processing

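No paired analysis was possible because each group has 1 array and the labels give no replicate numbers. The number of chains lower in Primary neuron than in Fibroblast was 15 to 20 and their median -2.04 to -1.04 over the 10 alternatives, and no chain was higher in any. The 15 were of 17 chains detected on both arrays, where 15.1% of genes were lower. The 20 were of 37 chains with no filter, where 9.37% of genes were lower. For APNL against Fibroblast, 0 chains were called in each alternative. For APNL+AuEMF against Fibroblast the single lower chain became 0 without background correction, with normexp and an offset of 50, with either median scaling and with the authors' deposited log2 values, and 5 at 1.5-fold, where 9.83% of all genes were lower. For APNL+AuEMF against APNL it became 0 without background correction, with that normexp setting, with the authors' values and with scaling over detected probes, and 3 at 1.5-fold, where 6.37% of all genes were lower. With median scaling over all probes it was 1, but Col5a2 and not Col9a2. Against Primary neuron, 13 to 19 chains were higher in APNL and 10 to 19 in APNL+AuEMF. Both counts of 19 came at the 1.5-fold threshold, where 26.2% of all genes were higher in APNL and 17.4% in APNL+AuEMF. The 13 were of 17 chains detected on both arrays, where 12.5% of genes were higher. The 10 were of 24 chains without background correction, where 4.77% of genes were higher. With no filter, the APNL count of lower chains became 1 and its median 0.81, where probes at background are included. In the 6 settings that can change the log2 difference of a single chain, 654 of 702 differences moved by less than 1.5-fold and 48 by more, and no difference past 2-fold changed sign. The authors' values repeat the setting without background correction, so the 14 differences that moved there are counted under both names. In Primary neuron against Fibroblast the modification and folding list had 11 to 15 genes lower, processing and crosslinking 4 to 7, receptors 4, degradation 3 to 4 and basement membrane partners 6 to 8, with 0 higher except 0 to 1 for degradation. Scaling to the median of all probes set the all-gene median of Primary neuron minus Fibroblast at -0.29 in place of -0.10, with the collagen median at -2.04. Chains near background, such as Col4a6, Col5a3 and Col9a1, are limited by signal over background.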
